A study of Homo sapiens with 72 samples.

Results

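Nilotinib is an inhibitor of the ABL kinases that also binds the discoidin domain receptors, the platelet-derived growth factor receptors, KIT and the CSF1 receptor. The transcripts of its 8 target kinases, ABL1, ABL2, DDR1, DDR2, PDGFRA, PDGFRB, KIT and CSF1R, were followed among the 60371 genes of each library. They were chosen as known targets of the compound, at a time when earlier results of these data were known. Population RNA-seq was available from 72 wells of U2OS cells, a human osteosarcoma line, collected after 12 h with DMSO (18 wells) or with 1 of 6 compounds at 100 nM, 1000 nM or 10000 nM (3 wells each). All wells held the same unmodified line. The compounds were nilotinib, triptolide (a transcription inhibitor), homoharringtonine (a translation inhibitor), pyrazolanthrone (a JNK inhibitor), MK-2206 (an AKT inhibitor) and miglitol (an inhibitor of intestinal glucosidases). The labels do not say whether wells came from separate cultures, so p-values measure the spread between wells. The sum of expected counts per well ranged from 0.0708 mil to 68.3 mil with a median of 38.4 mil, and 3 libraries were under 10 mil: DMSO well 10, triptolide 100 nM well 2 and triptolide 1000 nM well 1.

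ABL1 and ABL2 are cytoplasmic tyrosine kinases that pass signals from growth factor receptors and adhesion sites to the actin cytoskeleton. DDR1 and DDR2 are receptors for collagen, the main protein of bone matrix. PDGFRA and PDGFRB bind platelet-derived growth factors, which drive growth of mesenchymal cells, while KIT and CSF1R are related receptors best known from mast cells, melanocytes and macrophages. Of 10 osteoblast markers 6 had a median of at least 1 TPM in DMSO, as did 3 of 5 epithelial markers, beside 24.0% of all genes. The osteoblast markers SP7 and IBSP had a median of 0. The mast cell genes CPA3 and MS4A2 also had a median of 0.

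In the files the genes carry the identifiers ENSG00000097007 for ABL1, ENSG00000143322 for ABL2, ENSG00000204580 for DDR1, ENSG00000162733 for DDR2, ENSG00000134853 for PDGFRA, ENSG00000113721 for PDGFRB, ENSG00000157404 for KIT and ENSG00000182578 for CSF1R. Positions were taken from the GENCODE annotation of GRCh38, the build named for these libraries. ABL1 lies at chr9:130713043-130887675 on the plus strand and ABL2 at chr1:179099330-179229684 on the minus strand. DDR1 lies at chr6:30876421-30900156 and DDR2 at chr1:162631373-162787405, both on the plus strand. The class III receptors sit in neighbouring pairs. PDGFRA (chr4:54229280-54298245) and KIT (chr4:54657267-54740783) are on the plus strand with 359021 bases between them. PDGFRB (chr5:150113839-150155872) and CSF1R (chr5:150053291-150113372) are on the minus strand with 466 bases between them. A processed pseudogene, RPL7P1, lies within CSF1R on the opposite strand. It had a median of 61.0 expected counts in DMSO, beside 38.5 for CSF1R. The libraries were made with a stranded kit. Whether reads of RPL7P1 were assigned to CSF1R was not tested.

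The 250 bases before the start of the main transcript are shown for the 3 genes that differed most between triptolide and homoharringtonine at 10000 nM. ABL2 moved down with the first and up with the second, while DDR1 and PDGFRB moved the other way relative to the remaining mRNA. They are given 5′ to 3′ on the strand of the gene, from GRCh38, and capitals mark GGGCGG (the GC box), CCAAT, or GCGGGGGCG (an EGR site) on either strand. In the ABL2 window the EGR site overlaps a GC box.
ABL2 chr1:179229678-179229927, minus strand: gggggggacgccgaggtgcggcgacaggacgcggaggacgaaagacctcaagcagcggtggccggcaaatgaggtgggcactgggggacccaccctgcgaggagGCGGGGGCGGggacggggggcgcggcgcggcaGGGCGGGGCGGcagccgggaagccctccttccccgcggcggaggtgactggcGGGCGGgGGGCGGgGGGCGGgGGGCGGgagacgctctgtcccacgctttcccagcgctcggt
DDR1 chr6:30884269-30884518, plus strand: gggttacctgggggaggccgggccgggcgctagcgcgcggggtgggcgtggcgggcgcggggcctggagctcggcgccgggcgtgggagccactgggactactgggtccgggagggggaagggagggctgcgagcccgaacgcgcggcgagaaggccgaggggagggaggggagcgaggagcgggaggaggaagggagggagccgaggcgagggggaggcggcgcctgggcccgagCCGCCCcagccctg
PDGFRB chr5:150155846-150156095, minus strand: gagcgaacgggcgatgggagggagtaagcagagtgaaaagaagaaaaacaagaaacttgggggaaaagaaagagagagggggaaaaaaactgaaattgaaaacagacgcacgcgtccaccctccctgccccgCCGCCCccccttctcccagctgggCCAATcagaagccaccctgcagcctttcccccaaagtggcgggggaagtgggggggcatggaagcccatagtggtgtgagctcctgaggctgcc

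The ABL2 window held 7 GC boxes and 32 CpG dinucleotides. DDR1 had 1 GC box and 30 CpG, and PDGFRB had 1 GC box, 1 CCAAT and 9 CpG. Of 34943 RefSeq windows of the same length, 42.55% held a GC box, 32.04% a CCAAT and 4.71% the EGR letters, and the median CpG count was 11. ABL1 had 2 GC boxes, 1 CCAAT and the EGR letters, and KIT had 1 GC box. The windows of DDR2, PDGFRA and CSF1R had no GC box, and that of DDR2 had 2 CCAAT. The TATA box (TATAAA), the AP-1 site (TGACTCA), the cyclic AMP element (TGACGTCA) and a CArG box were found in none of the 8 windows, on either strand. Their shares among the RefSeq windows were 10.75%, 4.22%, 1.63% and 0.03%.

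Among the 3′ ends, those of ABL2 and DDR2 stood apart in length. The main transcript of ABL2 has a 3′ UTR of 8388 bases with 18 copies of ATTTA, the core of AU-rich elements, and that of DDR2 has 7159 bases with 17 copies. The median over 18175 transcripts was 1177 bases. Per kb these were 2.15 and 2.37 copies, near the median of 2.31 for 3′ UTRs of 5000 bases or more. The median over all 3′ UTRs was 1.67 per kb. PDGFRA had the most per kb of the members, 3.70, with 11 copies in 2973 bases. ABL2 and DDR2 were the only members with the AU-rich nonamer TTATTTATT, each with 1 copy, in capitals in the sites printed here. The nonamer occurred in 8.98% of all 3′ UTRs and in 29.45% of those of 5000 bases or more.
ABL2 nonamer site: ggaatattctTTATTTATTttgtcatttc
DDR2 nonamer site: tttcttttctTTATTTATTctctgtaagt

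To learn which targets U2OS expresses, levels in DMSO were compared as TPM, a value scaled to transcript length and library size. Of the 8 target genes, 6 had a median of at least 1 TPM over the 18 DMSO wells, against that 24.0% of all 60371 genes. Among 90 tyrosine kinase genes, ABL1 ranked 9 and ABL2 18. PDGFRB ranked 22, DDR1 24 and DDR2 26, while PDGFRA ranked 38, CSF1R 56 and KIT 82. The receptor AXL had the highest level of these kinases, with a median of 369 TPM.

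Over the 17 DMSO wells above 10 mil, ABL1 ran from 49.8 to 69.3 TPM, and its median over all 18 wells was 59.5. ABL2 ran from 22.0 to 41.7 TPM with a median of 32.2. The lowest ABL1 well thus lay above the highest ABL2 well. PDGFRB ran from 16.1 to 24.3 TPM with a median of 20.6. DDR1 ran from 14.1 to 25.1 with a median of 18.4, and DDR2 from 13.6 to 21.5 with a median of 17.3. These 3 ranges overlapped. PDGFRA ran from 3.53 to 6.03 TPM with a median of 4.88, below all 3. CSF1R ran from 0.28 to 1.25 TPM with a median of 0.66, and KIT had no count in any DMSO well. DMSO well 10, with 0.46 mil counts, listed DDR1 at 70.7, PDGFRA at 33.8 and CSF1R at 21.4 TPM from 21, 7 and 4 counts, so these values carry little precision.

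Neighbours in that order were compared within wells. ABL1 was above ABL2 in 18 of 18 wells, by 0.94 ± 0.37 (SD) on the log2(TPM + 0.1) scale, and ABL2 above PDGFRB in 18 of 18 by 0.61 ± 0.40 (two-sided permutation test within wells, adjusted p = 3.5e-05 for each, which follows from 2e-05, the smallest p these permutations can give). PDGFRB and DDR1 did not differ beyond their spread, with PDGFRB higher in 11 of 18 wells by 0.02 ± 0.46 (permutation test, adjusted p = 0.881). DDR1 was above DDR2 in 12 of 18 wells by 0.29 ± 0.88 (permutation test, adjusted p = 0.082). DDR2 was above PDGFRA in 17 of 18 wells by 1.57 ± 1.06 (permutation test, adjusted p = 0.00028), the exception being well 10. PDGFRA exceeded CSF1R in all 18 wells (permutation test, adjusted p = 3.5e-05). CSF1R had counts in all 18 wells and KIT in none, so the outcome of a test of that pair was fixed and no p-value is given. The pair was still among those over which the p-values were adjusted.

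**Figure D1:**
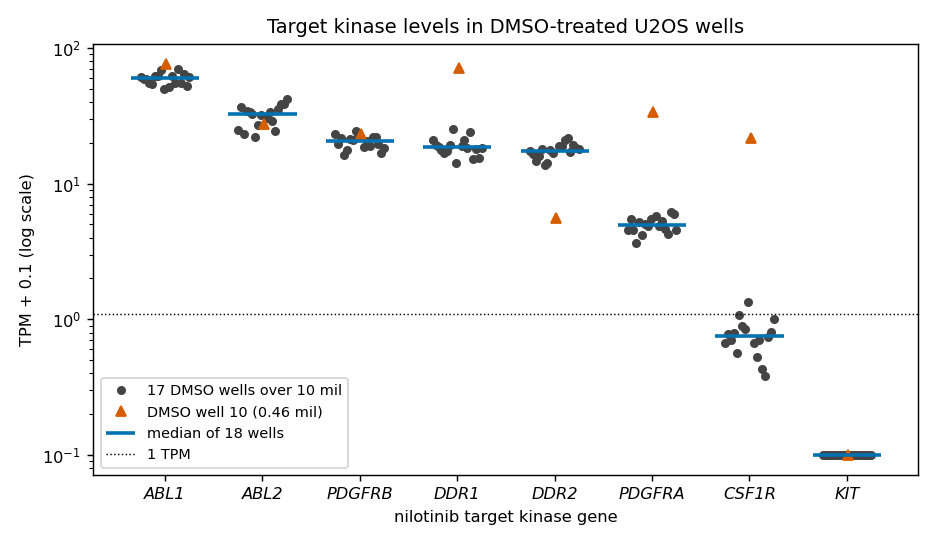
TPM + 0.1 on a log scale for each target kinase gene in the 18 DMSO wells, with a blue line at the median; DMSO well 10, of 0.46 mil counts, is a triangle. ABL1 lies highest, PDGFRB, DDR1 and DDR2 overlap, CSF1R lies mostly below the dotted line of 1 TPM, and KIT is at 0 in every well.

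The DMSO wells also showed how the levels moved without treatment. For each library a line was fitted to the log2 difference of genes from the DMSO mean against the GC content of their transcripts. Its slope per 10 percentage points, called the GC slope, ran from -0.44 to 0.31 over the DMSO wells. Over the 17 deeper wells, ABL2 was lower where the slope was higher (Pearson r = -0.79, permutation p = 0.00012, adjusted over 7 genes 0.00084; Spearman rho = -0.76, permutation p = 0.00068, adjusted 0.0048), and r was -0.75 without the 2 wells farthest from the median slope. PDGFRB was higher (r = 0.71, permutation p = 0.0014, adjusted 0.0049; rho = 0.67, permutation p = 0.0036, adjusted 0.013), with r = 0.73 without those wells. DDR1 followed in the same direction as PDGFRB by rank (rho = 0.59, permutation p = 0.015, adjusted 0.036) but not by r (0.53, permutation p = 0.028, adjusted 0.066). ABL1, DDR2, PDGFRA and CSF1R gave adjusted permutation p-values from 0.12 to 0.62. The GC content of the transcripts was 48.85% for ABL2, 56.55% for PDGFRB and 62.48% for DDR1. DDR2 and PDGFRA, at 47.25% and 46.9%, had less GC than ABL2 but gave r of only -0.36 and -0.34. CSF1R, at 57.79%, had more than PDGFRB but gave r = -0.13, and ABL1, at 53.58%, gave 0.43. Whether GC content sets these correlations was not tested. GC slopes also differed between treated groups. In a treated well the slope is fitted to the difference from the DMSO mean, so it can hold part of the response to the compound. Fits with the slope as a covariate may therefore take away part of an effect.

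**Figure D2:**
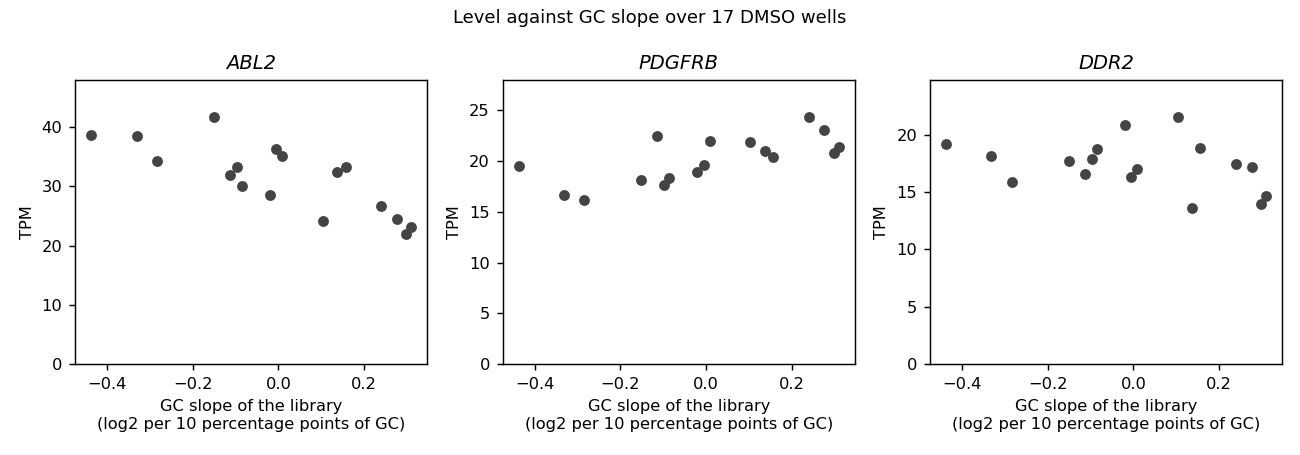
TPM of ABL2, PDGFRB and DDR2 (vertical axes) against the GC slope of the library (horizontal axes, log2 per 10 percentage points of GC) in 17 DMSO wells, each point a well. ABL2 falls with the slope (r = -0.79), PDGFRB rises (r = 0.71), and DDR2 gives r = -0.36 with an adjusted permutation p of 0.2.

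With nilotinib itself, the question was whether the compound changes the transcripts of its own targets. At 10000 nM, ABL2 and DDR2 rose and PDGFRA, DDR1 and PDGFRB fell, each by less than 2-fold. Of the 7 target genes that passed the filter on low counts, 5 were past an adjusted p-value of 0.05 (edgeR's quasi-likelihood test, adjusted over all genes tested), beside 14.4% of the 18616 genes tested. KIT had no counts and was not tested. These are bulk samples, in which fewer cells with a transcript and less transcript per cell cannot be told apart.

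ABL2 measured 72.3, 56.8 and 53.0 TPM in the 3 wells with 10000 nM nilotinib, all above the highest of the 18 DMSO wells, a log2(Fold Change) of 0.86 ± 0.13 (SE; edgeR adjusted p = 7.17e-05). With the GC slope as a covariate, the log2(Fold Change) of ABL2 was 0.69. ABL1, its closest relative, measured 73.1, 72.1 and 61.9 TPM, with 2 wells above the 17 deeper DMSO wells, and its log2(Fold Change) of 0.18 ± 0.10 was not past the threshold (edgeR adjusted p = 0.259). The same gene gave 0.31 with the GC slope as a covariate (edgeR adjusted p = 0.000348).

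PDGFRA measured 3.18, 3.55 and 3.46 TPM, 2 of the wells below all DMSO wells, a log2(Fold Change) of -0.79 ± 0.14 (edgeR adjusted p = 0.000287). Its call held under the alternatives that gave it a test, with values from -1.47 to -0.70; it was not tested under the filter of at least 10 counts in every well, and it did not reach a log2(Fold Change) below -1 with the TMM scaling. DDR2 measured 22.4, 23.8 and 27.8 TPM, all 3 above every DMSO well, a log2(Fold Change) of 0.57 ± 0.15 (edgeR adjusted p = 0.0114). Its call was lost without well 2 (adjusted p = 0.0508) and without well 3 (0.111), and scaling to mitochondrial mRNAs turned it to -0.08. DDR1 measured 14.62, 17.07 and 14.98 TPM, within the DMSO range, with a log2(Fold Change) of -0.37 ± 0.12 (edgeR adjusted p = 0.0431). PDGFRB measured 15.4, 16.5 and 16.6 TPM, 1 well below all DMSO wells, with -0.33 ± 0.11 (edgeR adjusted p = 0.0412). Both calls were lost without any 1 of the 3 treated wells, with adjusted p-values from 0.0981 to 0.251 for DDR1 and from 0.0543 to 0.289 for PDGFRB. The GC slope lay between -0.30 and -0.06 in these wells. With the slope as a covariate the log2(Fold Change) was -0.23 for DDR1 and -0.20 for PDGFRB, both past the threshold (edgeR adjusted p = 0.0267 and 0.0122). CSF1R measured 0.84, 1.30 and 0.99 TPM, a log2(Fold Change) of 0.67 ± 0.33 that was not past the threshold (edgeR adjusted p = 0.188).

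At lower doses fewer targets moved. At 100 nM, DDR2 measured 13.1, 8.03 and 8.93 TPM, all below the 17 deeper DMSO wells (log2(Fold Change) -0.72 ± 0.19, edgeR adjusted p = 0.0198), and PDGFRA 4.14, 2.54 and 2.20 TPM (-0.75 ± 0.16, edgeR adjusted p = 0.00362). These 2 calls of 7 stand beside 9.08% of all genes, and both were lost without well 2 (adjusted p = 0.221 for DDR2 and 0.065 for PDGFRA) and without well 3 (0.199 and 0.077). At 1000 nM only PDGFRA passed, 1 of 7 beside 3.95% of all genes, with 3.41, 3.27 and 3.89 TPM (-0.51 ± 0.14, edgeR adjusted p = 0.0384). That call was lost without well 1 (adjusted p = 0.214) or well 2 (0.141). With the GC slope as a covariate 4 of the 7 passed at this dose. ABL2 showed 46.5, 21.9 and 22.6 TPM at 100 nM and 52.1, 31.9 and 48.1 TPM at 1000 nM, a wide spread between wells of the same dose, and passed at neither (edgeR adjusted p = 0.808 and 0.0623).

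Over the 3 doses DDR2 had a linear trend on log10 dose in the edgeR test, 0.64 ± 0.12 per 10-fold step (edgeR adjusted p = 0.0268), 1 of 7 beside 3.09% of the genes tested. DDR2 was below DMSO at 100 nM, where miglitol also gave a negative log2(Fold Change) (-0.26, not past the threshold), and above DMSO at 10000 nM. The trend was lost without well 2 (0.57, adjusted p = 0.166) and without well 3 (0.55, adjusted p = 0.51). ABL2 had no trend past the threshold in that test but passed with DESeq2 (0.36, adjusted p = 0.035), with the replicate block (0.40, edgeR adjusted p = 0.0145), with the GC slope as a covariate (0.22, edgeR adjusted p = 0.0249) and in 1 fit over all 72 wells (0.39, edgeR adjusted p = 0.00859). The comparison compound miglitol, which has no kinase target, gave a trend for 0 of 7 targets but for 15.9% of all genes tested.

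Nilotinib was next set against miglitol at the same dose, 3 wells against 3, which leaves the DMSO wells out. At 100 nM and 1000 nM no target differed, and neither did any other gene after adjustment (0% of the genes tested). At 10000 nM, 5 of 7 targets differed beside 23.1% of all genes. PDGFRA was lower, 3.18 to 3.55 TPM against 4.66 to 5.68 with miglitol, with no overlap (log2(Fold Change) -0.85 ± 0.08, edgeR adjusted p = 0.000305). ABL1 was higher, 61.9 to 73.1 against 55.3 to 60.9 TPM (0.41 ± 0.05, edgeR adjusted p = 0.00104), and ABL2 was higher, 53.0 to 72.3 against 35.4 to 42.4 TPM (0.64 ± 0.11, edgeR adjusted p = 0.00432). DDR2, 22.4 to 27.8 against 15.5 to 21.2 TPM, gave 0.44 ± 0.11 (edgeR adjusted p = 0.0236), and CSF1R, 0.84 to 1.30 against 0.60 to 1 TPM, gave 0.73 ± 0.21 (edgeR adjusted p = 0.0388). DDR1 and PDGFRB did not pass, with -0.14 ± 0.07 and -0.06 ± 0.08. In 1 fit over all 72 wells, and without the wells numbered 2, only 1 of these 5 calls was left.

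With MK-2206 and miglitol no target passed the threshold in the edgeR test at any dose. MK-2206 called 0 of 7 beside 0.0648%, 1.52% and 3.15% of all genes at the 3 doses and 0 of 7 for the trend beside 0.028%, and miglitol 0 of 7 beside 0% at each. Without adjustment 944, 1563 and 4195 genes had p-values under 0.05 with miglitol at 100, 1000 and 10000 nM by edgeR. For ABL2, 2 of the 3 wells with 10000 nM MK-2206 lay above every DMSO well, the highest at 54.7 TPM. So did 1 well each with 100 nM and 1000 nM MK-2206 and with 10000 nM miglitol. At 10000 nM its log2(Fold Change) was 0.36 with MK-2206 and 0.23 with miglitol (edgeR adjusted p = 0.264 and 0.279). DDR2 with 1000 nM MK-2206, at 10.6, 11.9 and 9.04 TPM, lay below the 17 deeper DMSO wells, but its log2(Fold Change) of -0.63 ± 0.17 did not pass (edgeR adjusted p = 0.0681). PDGFRA with 10000 nM MK-2206, at 6.29, 9.03 and 7.55 TPM, lay above those wells, and its 0.42 ± 0.14 did not pass either (edgeR adjusted p = 0.109). With the GC slope as a covariate both passed, with -0.55 and 0.44 (edgeR adjusted p = 0.00209 and 0.00671). DDR2 at 1000 nM also passed with DESeq2 (-0.65, adjusted p = 0.00091), with library sizes only, without the libraries under 10 mil and with at least 10 counts in every well, and at 10000 nM it passed with DESeq2 (-0.53, adjusted p = 0.0276). With 10000 nM miglitol, ABL1, ABL2, DDR1 and PDGFRB passed with the replicate number as a block (edgeR adjusted p from 0.00697 to 0.0126).

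Pyrazolanthrone raised DDR2. At 10000 nM the gene measured 40.7, 36.0 and 46.2 TPM against a DMSO maximum of 21.5, a log2(Fold Change) of 1.36 ± 0.14 (edgeR adjusted p = 8.33e-07), and the call held under all alternatives run, from 1.04 to 1.49. It was the only 1 of 7 targets called, beside 7.65% of all genes. At 100 nM DDR2 was lower instead, 10.5, 9.46 and 8.91 TPM (-0.70 ± 0.17, edgeR adjusted p = 0.0212), as was PDGFRA, 3.32, 2.87 and 3.28 TPM (-0.57 ± 0.14, edgeR adjusted p = 0.0253), 2 of 7 beside 4.77% of all genes. Both calls were lost without well 2 (adjusted p = 0.163 and 0.206) and without well 3 (0.15 and 0.135). The log2(Fold Change) of DDR2 at 100 nM was negative with every compound. Among these were miglitol (-0.26, edgeR adjusted p = 0.748) and MK-2206 (-0.24, edgeR adjusted p = 0.766). PDGFRA at 100 nM was likewise negative with every compound, among them miglitol (-0.26, edgeR adjusted p = 0.748) and MK-2206 (-0.03, edgeR adjusted p = 0.967). At 1000 nM pyrazolanthrone, 0 of 7 targets and 0% of all genes were called (1033 genes at an unadjusted edgeR p under 0.05). The trend on dose was 1.03 ± 0.11 per 10-fold step for DDR2 (edgeR adjusted p = 0.00481) and 0.24 ± 0.07 for PDGFRA (edgeR adjusted p = 0.036), 2 of 7 beside 18.6% of all genes, and without well 2 or without well 3 no target passed.

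**Figure D3:**
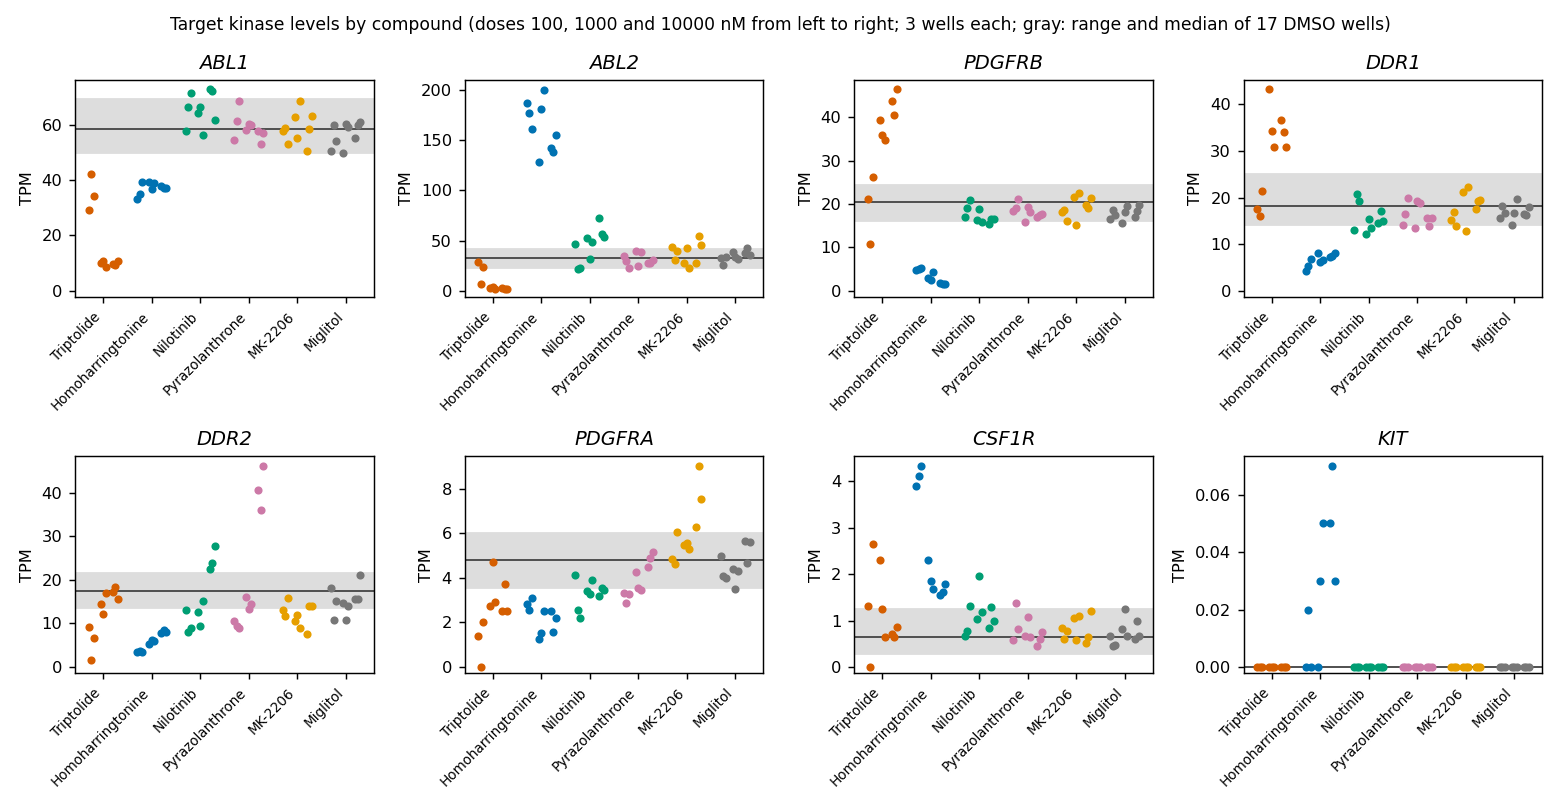
TPM of each target kinase gene (vertical axes) by compound (horizontal axes), with doses of 100, 1000 and 10000 nM from left to right within a compound and a point for each of 3 wells; gray marks the range and the line the median of 17 DMSO wells. ABL2 lies above the DMSO range with homoharringtonine and with 10000 nM nilotinib, PDGFRB and DDR1 lie below it with homoharringtonine, and DDR2 lies above it with 10000 nM pyrazolanthrone (36.0 to 46.2 TPM).

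Homoharringtonine changed all 7 tested targets at every dose. ABL2 and CSF1R rose, and ABL1, DDR1, DDR2, PDGFRA and PDGFRB fell. The 7 of 7 calls stand beside 63.4% of all genes at 100 nM, 68.4% at 1000 nM and 74% at 10000 nM. The median log2(Fold Change) of the 7 was -1.08, -1.38 and -1.12, beside -0.03, -0.01 and -0.05 for all genes.

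The 2 ABL genes moved apart. ABL2 measured 187, 178 and 162 TPM at 100 nM, 128, 182 and 201 at 1000 nM and 143, 139 and 156 at 10000 nM, with every well above every DMSO well. Its log2(Fold Change) was 2.54 ± 0.11, 2.43 ± 0.12 and 2.08 ± 0.12 (edgeR adjusted p = 1.01e-15, 8.52e-15 and 1.4e-13). The GC slope lay between -0.65 and 0.07 in the homoharringtonine wells, and with it as a covariate ABL2 gave 1.58 at 10000 nM. At that dose the slopes of all 3 wells, -0.65 to -0.50, lay below the lowest DMSO slope of -0.44. Slope and treatment can thus hardly be told apart there. ABL1 stayed between 33.3 and 39.2 TPM at all 3 doses, below every DMSO well. Its log2(Fold Change) went from -0.44 ± 0.12 at 100 nM to -0.89 ± 0.11 at 10000 nM (edgeR adjusted p = 0.00364 and 1.16e-07), whereas its TPM showed no such order, and with library sizes only its trend on dose was not past the threshold (adjusted p = 0.168).

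The receptor PDGFRB fell to 4.71, 4.87 and 5.30 TPM at 100 nM, 2.93, 2.40 and 4.34 at 1000 nM and 1.76, 1.58 and 1.40 at 10000 nM. The wells of the 3 doses did not overlap. The log2(Fold Change) was -1.62 ± 0.14, -2.84 ± 0.16 and -3.66 ± 0.14 (edgeR adjusted p = 1.74e-10, 1.56e-13 and 7.43e-17), a trend of -1.03 ± 0.10 per 10-fold step (edgeR adjusted p = 3.03e-05). PDGFRA also fell, to between 1.25 and 3.09 TPM, with -1.08 ± 0.14 at 100 nM and -1.76 ± 0.15 at 10000 nM. DDR1 fell to between 4.11 and 8.17 TPM, by 1.70, 1.38 and 1.43 on the log2 scale. DDR2 fell most at the lowest dose. It measured 3.44, 3.65 and 3.33 TPM at 100 nM, 5.18, 6.26 and 5.97 at 1000 nM and 7.73, 8.36 and 8.11 at 10000 nM, a rising trend of 0.49 ± 0.08 per 10-fold step (edgeR adjusted p = 0.000773). In all, 6 of 7 targets had a trend with homoharringtonine, beside 44% of all genes, and 3 of 7 without the wells numbered 2.

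The 2 targets scarcely expressed in DMSO gained reads. CSF1R measured 3.90, 4.12 and 4.33 TPM at 100 nM (393, 322 and 454 expected counts), 2.30, 1.86 and 1.67 at 1000 nM and 1.54, 1.61 and 1.78 at 10000 nM, all above the 17 deeper DMSO wells. Its log2(Fold Change) was 3.55 ± 0.25, 2.38 ± 0.29 and 2.03 ± 0.28 (edgeR adjusted p = 9.37e-12, 1.13e-07 and 6.81e-07). KIT had 2 counts over the 3 wells at 100 nM, 9 at 1000 nM and 16 at 10000 nM, the last in all 3 wells. No KIT count was found in the other 63 wells, 2310 mil counts in all. A floor of 3 counts over the pooled DMSO wells was 0.00446 CPM. The pooled KIT level was 13.8-fold this floor at 1000 nM and 25.2-fold at 10000 nM, where it was 0.112 CPM. The floor covers counting error in DMSO only. It leaves out counting error in the treated wells and the spread between wells. KIT counts ran from 0 to 5 at 1000 nM and from 2 to 9 at 10000 nM, so these folds are not lower limits. The sum of the 3 mast cell markers stayed between 0 and 1.27 TPM over all treated wells.

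Triptolide changed the targets in another pattern, relative to the remaining mRNA. At 1000 nM and 10000 nM ABL1, ABL2 and PDGFRA fell and DDR1, PDGFRB, DDR2 and CSF1R rose, 7 of 7 beside 67.4% and 71.8% of all genes, while scaling to the 13 mitochondrially encoded mRNAs turned all 4 rises to falls. At 100 nM, where well 2 had 0.0708 mil counts, 4 of 7 passed beside 56.8% of all genes. DDR1, PDGFRB and CSF1R were higher, and these 3 did not pass with the replicate block. PDGFRA was lower at 100 nM, with a log2(Fold Change) of -1.64 (edgeR adjusted p = 6.01e-07), against -0.66 at 1000 nM and -0.60 at 10000 nM. The scaling matters for this compound: against the TMM fit, the genes tested had a median 0.46 lower on the log2 scale at 1000 nM and 0.53 lower at 10000 nM with library sizes only, and 2.47 and 2.75 lower with the mitochondrial mRNAs. With DESeq2 size factors it was 0.16 and 0.17 higher.

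ABL2 fell to 2.55, 3.12 and 1.73 TPM at 1000 nM and 2.20, 1.55 and 1.37 at 10000 nM, below every DMSO well, with a log2(Fold Change) of -3.22 ± 0.18 and -3.60 ± 0.18 (edgeR adjusted p = 6.12e-14 and 4.87e-15). ABL1 fell to 9.82, 10.8 and 8.57 TPM and then 9.65, 9.07 and 10.7, with -1.90 ± 0.13 and -1.79 ± 0.13 (edgeR adjusted p = 3.76e-12 and 6.03e-12). Both fell under every scaling. At 100 nM neither passed in the TMM fit. ABL1 measured 29.3, 42.1 and 34.3 TPM, the middle value from the library of 0.0708 mil, and all 3 wells lay below every DMSO well. It passed with DESeq2 (-0.32, adjusted p = 0.0359), library sizes only (-0.59, edgeR adjusted p = 0.00146), the replicate block (-0.62, edgeR adjusted p = 7.54e-06) and at least 10 counts in every well (-0.97, edgeR adjusted p = 1.72e-07). Over the 3 doses 5 of 7 targets had a trend with triptolide, beside 24.7% of all genes, and 3 of 7 without the wells of any 1 replicate number. ABL2 fell by 1.82 and ABL1 by 0.77 on the log2 scale per 10-fold step (edgeR adjusted p = 0.000176 and 0.00227).

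PDGFRB measured 39.5, 36.0 and 34.9 TPM at 1000 nM and 43.9, 40.6 and 46.5 at 10000 nM, above every DMSO well. Its log2(Fold Change) was 1.66 ± 0.10 and 1.88 ± 0.09 (edgeR adjusted p = 1.67e-13 and 4.87e-15), 1.34 at 10000 nM with library sizes only, and -0.94 with the mitochondrial scaling. DDR1 measured 43.4, 34.3 and 30.8 TPM and then 36.8, 34.1 and 30.8, with 1.61 ± 0.12 and 1.63 ± 0.11 (edgeR adjusted p = 8.29e-12 and 1.31e-12), and -1.18 at 10000 nM with the mitochondrial scaling. The calls of DDR2 and CSF1R rested on the scaling even without it. At 1000 nM DDR2 measured 12.15 to 16.89 TPM, all below the DMSO median of 17.3, though the TMM fit gave 0.53 (edgeR adjusted p = 0.0112). At 10000 nM DDR2 measured 17.1, 18.2 and 15.7 TPM, inside the DMSO range, and CSF1R 0.71, 0.65 and 0.85. Their log2(Fold Change) of 0.79 ± 0.15 and 0.90 ± 0.33 became 0.26 and 0.37 with library sizes only, neither past the threshold (edgeR adjusted p = 0.128 and 0.344), and -1.95 and -1.92 with the mitochondrial scaling. PDGFRA measured 2.50, 3.72 and 2.50 TPM at 10000 nM, with a log2(Fold Change) of -0.60 ± 0.14 (edgeR adjusted p = 0.000543).

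**Figure D4:**
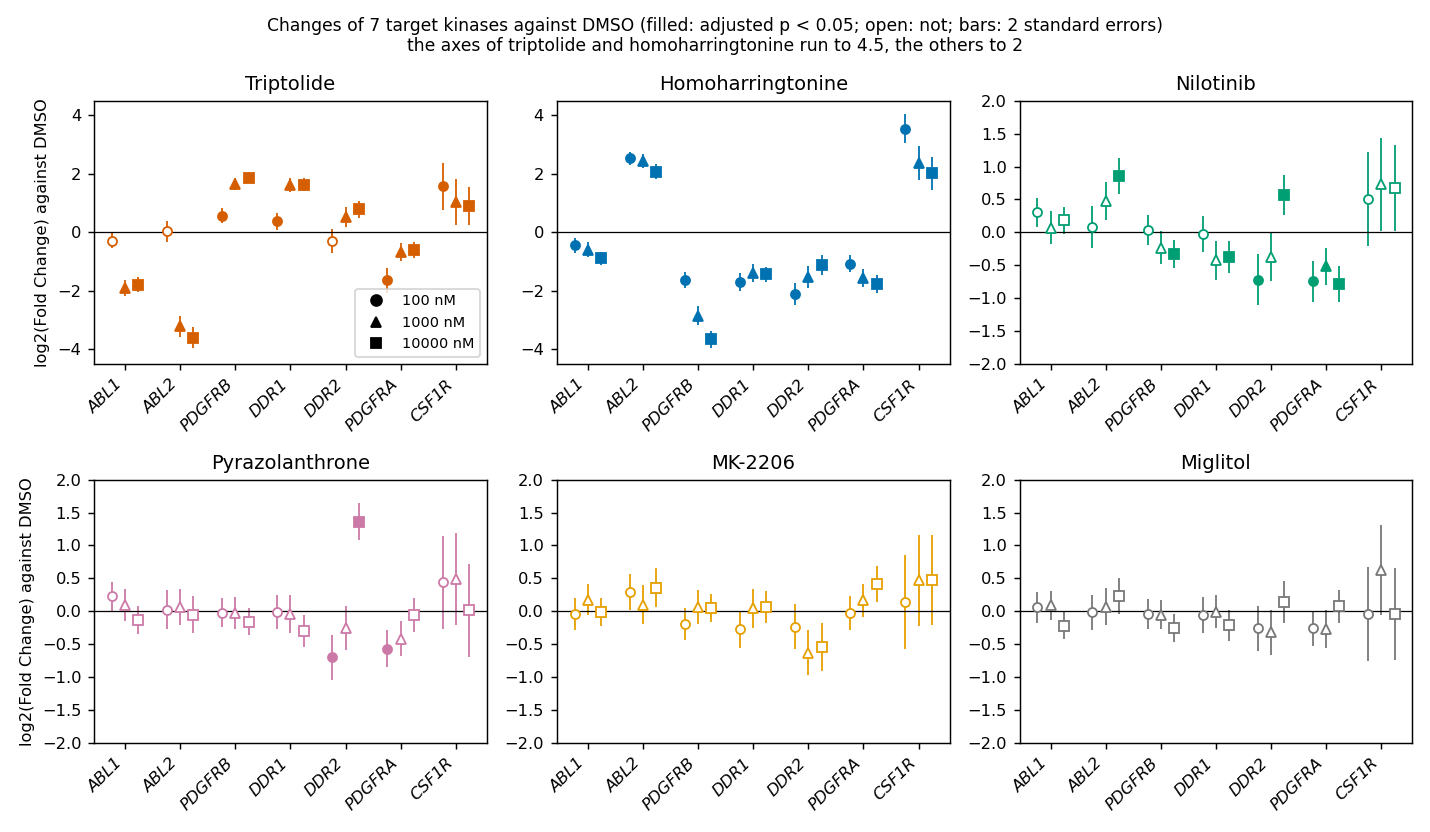
Log2(Fold Change) against the 18 DMSO wells (vertical axes, TMM scaling) of 7 target kinases, by compound and dose, with bars of 2 standard errors and filled symbols for adjusted p-values under 0.05. ABL2 lies at -3.22 and -3.60 with triptolide at the upper doses and between 2.08 and 2.54 with homoharringtonine; the rises with triptolide of PDGFRB, DDR1, DDR2 and CSF1R turn to falls with the mitochondrial scaling.

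Set directly against each other, triptolide and homoharringtonine differed in 5 of 7 targets at 100 nM, 7 of 7 at 1000 nM and 7 of 7 at 10000 nM, beside 65.5%, 66.8% and 88.4% of all genes. ABL2 was lower with triptolide by 5.60 ± 0.09 on the log2 scale at 10000 nM, 1.37 to 2.20 TPM against 139 to 156 (edgeR adjusted p = 8.92e-12). PDGFRB was higher with triptolide, 40.6 to 46.5 against 1.40 to 1.76 TPM (5.62 ± 0.10, edgeR adjusted p = 1.15e-11). DDR1 was also higher (3.15 ± 0.08, edgeR adjusted p = 4.68e-11). The directions of these 3 held under every scaling; those of DDR2 (2.00) and PDGFRA (1.24) turned to -0.59 and -1.34 with the mitochondrial scaling. At 100 nM the filter of at least 10 counts in every well, which the library of 0.0708 mil limits, left ABL1 as the one target with a test. Its 0.23, not past the threshold in the TMM fit (edgeR adjusted p = 0.27), became -0.57 (edgeR adjusted p = 0.00225), and the 5 called targets were not tested.

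Across the 19 groups of wells, the genes whose mean log2(CPM + 1) ran most like a target were found among 12647 protein-coding genes, as a description over groups that share a compound or a depth. Wells under 10 mil were left out of these means. DUSP7, a phosphatase of ERK, followed ABL1 (Pearson r = 0.99, n = 19), as did JARID2, a subunit of a Polycomb complex. For ABL2 the closest were C18orf25 and DUSP1, an immediate early phosphatase of MAP kinases (r = 0.99 for both). PDGFRB was followed by NSD2, a histone methyltransferase, and RAPGEF1, a RAP1 exchange factor (r = 0.99 for both), and DDR1 by PIANP and OBSL1 (r = 0.99 for both). EPRS1, a tRNA synthetase, and ALDH1L2, a mitochondrial folate enzyme, followed DDR2 less closely (r = 0.93 and 0.92). PDGFRA ran most like RUNX2, a regulator of osteoblast genes, and SH3YL1 (r = 0.89 for both). Between the targets themselves r was -0.97 for ABL2 and DDR1 and 0.92 for DDR1 and PDGFRB.

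The ligands and partners of the targets were followed as lists. Of 16 ligands, 3 rose and 0 fell with 10000 nM nilotinib among 12 tested (median log2(Fold Change) 0.03, beside 0.01 for all genes), where 14.4% of all genes were called. CSF1, the ligand of CSF1R, measured 21.03, 18.95 and 18.43 TPM against a DMSO maximum of 11.6 (1.18 ± 0.10, edgeR adjusted p = 7.41e-09), and PDGFC, a ligand of PDGFRA, 5.19, 4.32 and 4.53 TPM (1.04 ± 0.29, edgeR adjusted p = 0.0162). With homoharringtonine at that dose 5 ligands rose and 9 fell of 16 tested, beside 74% of all genes called. The basement membrane collagen COL4A1 fell from between 67.0 and 116 TPM to between 2.29 and 2.35 (-5.30 ± 0.21), and COL10A1 rose (4.48 ± 0.44). With triptolide 10 rose and 2 fell of 13 relative to the remaining mRNA, beside 71.8% of all genes called. PDGFA fell to between 1.1 and 1.33 TPM from a DMSO minimum of 24.1 (-4.81 ± 0.23), and COL3A1 measured 17.7 to 21.2 TPM against 5.92 to 10.6 (1.98 ± 0.11, relative to the remaining mRNA).

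Of 31 adaptors and effectors, 3 rose and 3 fell with 10000 nM nilotinib among 30 tested (median log2(Fold Change) 0.06), beside 14.4% of all genes called. STAT5A, a transcription factor phosphorylated downstream of ABL and KIT, measured 6.41, 6.19 and 6.2 TPM against a DMSO median of 3.17 (1.07 ± 0.12, edgeR adjusted p = 3.45e-07). RIN1, an activator of ABL kinases, gave 0.41 ± 0.13 (edgeR adjusted p = 0.0315), GAB1, a docking protein, -0.47 ± 0.13 (edgeR adjusted p = 0.0177) and SRC -0.38 ± 0.12 (edgeR adjusted p = 0.0377). With homoharringtonine 8 rose and 12 fell of 31, beside 74% of all genes called. PXN, the focal adhesion protein paxillin, fell (-2.10 ± 0.12), and PTPN6, a phosphatase, rose (1.69 ± 0.44) from a low level of 0.22 TPM. With triptolide 9 rose and 14 fell of 30 relative to the remaining mRNA, beside 71.8% of all genes called. PIK3R1, a PI3 kinase subunit, fell to 0.12 to 0.19 TPM (-6.80 ± 0.33) and CTTN, an ABL substrate at the actin cytoskeleton, gave 1.22 ± 0.10 relative to the remaining mRNA.

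Among 8 other proteins that nilotinib binds, 1 fell and 0 rose at 10000 nM, beside 14.4% of all genes called. EPHB4, an ephrin receptor, measured 25.3, 28.1 and 27.7 TPM, below the DMSO minimum of 33.9 (-0.59 ± 0.13, edgeR adjusted p = 0.00254). EPHB4 also fell with homoharringtonine (-2.52 ± 0.15), where BRAF rose (2.34 ± 0.19). With triptolide MAPK14, the p38 kinase, fell (-3.17 ± 0.18), and MAP3K20 gave 1.32 ± 0.14 relative to the remaining mRNA.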

How the data were processed

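Population RNA-seq of 72 U2OS wells was used. The authors made TruSeq stranded poly(A) libraries and ran RSEM on GRCh38; the version of RSEM is not given in the sources used here. The deposited expected counts are estimates of reads per gene, not normalized. The deposited TPM and FPKM values were scaled by the authors' RSEM run to transcript length and library size.

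Expected counts were rounded and tested with edgeR 4.0.16 in R 4.3.3 (TMM, filterByExpr with a smallest count of 10, quasi-likelihood test, Benjamini-Hochberg adjustment over all genes tested), 3 wells against 18 DMSO wells or 3 against 3, and as linear trends on log10 dose. A call required an adjusted p-value under 0.05. DESeq2 1.42.0, other scalings and filters, a replicate block, a GC covariate and left-out wells were alternatives. Permutation tests used scipy 1.17.1 with 100000 resamples. Symbols came from GENCODE release 44, which held 56104 of 60371 identifiers. Promoter windows were read from GRCh38 and motif shares from RefSeq windows. Scripts were tested on simulated data.

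The targets and gene lists were chosen with earlier results of these data known. Named partners were the 2 largest rises and falls per list with 10000 nM nilotinib and 1 of each with triptolide and homoharringtonine, past the threshold; the genes most alike were the 2 protein-coding genes with the highest r. No sample was left out of the main tests. The GC correlations left out DMSO well 10. The search for genes most alike, the correlations between targets and the check on replicate numbers left out the 3 libraries under 10 mil. The paper's methods and the labels differ on the middle dose. For triptolide and homoharringtonine the paper's results section gives the same middle dose as the labels. The 1000 nM of the labels was used.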

Additional observations from a re-analysis of the deposited data

How the results depend on the processing

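Of 88 member changes called over all comparisons and trends, 43 kept their direction and their side of the threshold in the alternatives that gave them a test, the limit on log2(Fold Change) left out, and 45 did not. Not all 88 had a test under each: with at least 10 counts in every well 59 were kept and 2 lost, and without libraries under 10 mil 66 were kept and 1 lost. Of the calls, 2 were lost with DESeq2, 1 with DESeq2 size factors and 3 with the GC slope as a covariate. That GC fit was added after the data had been seen. More were lost with library sizes only (11), the replicate block (14) and without replicate number 1 (9), 2 (23) or 3 (21). In 1 fit over all 72 wells 6 were lost, and without a filter on low counts 7. Scaling to the mitochondrial mRNAs kept 52 of the 88, lost 18 and reversed 18 others. The number of members expressed in DMSO stayed within 1.5 times under all alternatives. The cause of the changes below was not tested.

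Scaling to the mitochondrial mRNAs reversed 18 called changes and turned 4 others into calls of the opposite sign. With triptolide against DMSO it gave at 100 nM ABL2 -1.63, DDR1 -1.33, PDGFRB -1.14 and CSF1R -0.18, at 1000 nM DDR1 -0.86, DDR2 -1.94, PDGFRB -0.81 and CSF1R -1.39, and at 10000 nM DDR1 -1.18, DDR2 -1.95, PDGFRB -0.94 and CSF1R -1.92. For DDR2 with 10000 nM nilotinib it gave -0.08. For triptolide against homoharringtonine it gave ABL1 -1.39 at 100 nM, DDR2 -0.31 and PDGFRA -1.43 at 1000 nM, and DDR2 -0.59 and PDGFRA -1.34 at 10000 nM. The trends became -0.01 for DDR2 with triptolide, -0.06 for PDGFRA with pyrazolanthrone, and -0.30 for ABL2 and -0.25 for PDGFRA with miglitol. The filter of at least 10 counts in every well gave -0.57 for ABL1 between triptolide and homoharringtonine at 100 nM.

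Counts of members called moved by more than 1.5 times as follows. With mitochondrial scaling they went from 2 to 0 with 100 nM nilotinib, 1 to 0 with 1000 nM and 5 to 3 with 10000 nM nilotinib, 2 to 0 with 100 nM pyrazolanthrone, 5 to 2 against miglitol at 10000 nM, and for trends from 5 to 3 with triptolide, 1 to 4 with nilotinib and 0 to 5 with miglitol. With library sizes only they went from 5 to 3 with 10000 nM nilotinib, and from 0 to 1 with 1000 nM MK-2206 and for the miglitol trend. DESeq2 gave 3 with 1000 nM nilotinib, 1 with 1000 and 10000 nM MK-2206 and 2 for the nilotinib trend. Without a filter on low counts 0 were called with 1000 nM nilotinib, 3 with 10000 nM and 1 for the pyrazolanthrone trend. With at least 10 counts in every well 1 was called with 100 nM triptolide, 1, 0 and 2 with nilotinib at the rising doses, 1 with 1000 nM MK-2206, 1 with 100 nM pyrazolanthrone, 1 between triptolide and homoharringtonine at 100 nM (ABL1, the one target tested there and not among the 5 called with TMM) and 1 for the triptolide trend. Without libraries under 10 mil 1 was called with 1000 nM and 10000 nM MK-2206. In 1 fit over all 72 wells 2 were called with 1000 nM nilotinib, 1 against miglitol and 2 for the nilotinib trend. The GC slope gave 4 with 1000 nM nilotinib, 1 and 3 with 1000 and 10000 nM MK-2206, and 2, 1 and 1 for the trends of nilotinib, MK-2206 and pyrazolanthrone. Requiring also a log2(Fold Change) above 1 or below -1 left 2 with 100 nM triptolide, 4 with 10000 nM triptolide, and 0 with each dose of nilotinib, 100 nM pyrazolanthrone and against miglitol.

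Leaving out each treated well in turn gave 2 to 4 with 100 nM triptolide, 0 to 3, 0 to 2 and 2 to 3 with nilotinib at the rising doses, 0 to 2 with 100 nM pyrazolanthrone, 1 to 4 against miglitol, and 3, 3 to 5, 0 to 2 and 0 to 3 for the trends of triptolide, homoharringtonine, nilotinib and pyrazolanthrone.

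Replicate numbers were not found to pair wells: over 68 pairs with the same number the mean correlation of deviations was 0.003, beside -0.004 over 136 other pairs, and in 0 of 24 comparisons was every pair over 0.1. With the number as a replicate block, using DMSO wells 1 to 3, 2 members were called with 100 nM triptolide, 0 with 100 and 1000 nM nilotinib, 0 with 100 nM and 3 with 10000 nM pyrazolanthrone, 1 with 10000 nM MK-2206, 4 with 10000 nM miglitol and 2 for the nilotinib trend. At a depth of 0.0708 mil the 100 nM triptolide well gave 0 counts of PDGFRA and CSF1R, so their levels there were not measurable.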

Other observations

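Among the other 82 tyrosine kinase genes, 44 had a median of at least 1 TPM in DMSO and 8 a median of 0. With 10000 nM nilotinib 11 rose and 13 fell of 70 tested (edgeR adjusted p under 0.05), with a median log2(Fold Change) of -0.01, beside 14.4% of all genes called. EGFR, the epidermal growth factor receptor, measured 33.3, 28.4 and 25.8 TPM against a DMSO maximum of 16.3 (1.38 ± 0.14, edgeR adjusted p = 8.71e-08), and EPHA4 gave 1.73 ± 0.22 (edgeR adjusted p = 3.35e-06). FGFR3, at 1.42, 1.03 and 1.06 TPM, gave -1.28 ± 0.24 (edgeR adjusted p = 0.000674), and RET gave -1.75 ± 0.55 (edgeR adjusted p = 0.0273) at a DMSO median of 0.11 TPM.

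With homoharringtonine at 10000 nM 21 rose and 30 fell of 70, beside 74% of all genes called. KDR, a receptor of endothelial growth factor, rose (4.85 ± 0.25) to between 1.25 and 1.42 TPM, and EPHB6, an ephrin receptor without kinase activity, fell (-2.89 ± 0.16). With triptolide 26 rose and 25 fell of 68 relative to the remaining mRNA, beside 71.8% of all genes called. EPHB3 fell to between 0.16 and 0.39 TPM from a DMSO minimum of 8.63 (-5.02 ± 0.25), and ROS1 gave 2.41 ± 0.32 at levels of at most 0.33 TPM.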
